A study of Mus musculus with 4 samples.

Results

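The 10 genes for the sugars that are built on the epidermal growth factor (EGF) repeats of Notch receptors were followed in mouse adult neural stem cells with lowered Ogt. They were taken by symbol from the 25261 genes of the deposited files: Pofut1, Lfng, Mfng, Rfng, Poglut1, Gxylt1, Gxylt2, Xxylt1, Eogt and Pofut2. All 10 had a single Ensembl identifier, and all 10 passed the filter on low values. The cells came from C57BL/6 mice aged 8 weeks, per the labels. Both groups had been infected with a lentivirus, which carried a scramble short hairpin RNA in the ctrl group (2 libraries) or a hairpin against mouse Ogt in the shOGT group (2 libraries). The labels do not name the brain region. They also do not say that libraries sharing a group were grown as separate cultures, so that p-values measure only the spread between these libraries, which may be technical. The series title ties Ogt to Notch signalling in adult neurogenesis.

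The extracellular part of Notch is a chain of EGF repeats, small folds held by disulphide bonds. In the endoplasmic reticulum Pofut1 adds fucose to them, Poglut1 adds glucose and Eogt adds N-acetylglucosamine (GlcNAc). The fringe enzymes Lfng, Mfng and Rfng then place a GlcNAc on the fucose, which alters how Notch responds to ligands of the Delta and Jagged families. Gxylt1 or Gxylt2 places a xylose on the glucose, and Xxylt1 adds a further xylose. Pofut2 also transfers fucose, but its known substrates are thrombospondin type 1 repeats and not EGF repeats, so that its place in this family rests on its chemistry. Eogt acts inside the secretory pathway, whereas Ogt, the target of the hairpin, adds GlcNAc to proteins of the nucleus and cytoplasm. Lfng has been used as a marker of stem cells in the adult hippocampus.

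Values are the deposited signal per gene, which behaves like reads divided by 1 factor per library. The libraries summed to between 16689493 and 16953670, and the step between values implied 15697508 to 17753976 reads. The target gene Ogt was at 4112 and 4137 in ctrl and at 3379 and 3516 in shOGT, a fall of the mean from 4125 ± 18.2 to 3447 ± 97.1 (SD, n = 2; limma adjusted p = 0.00876). Its transcript was thus lowered in part. Of the 10 neural stem cell markers, all were detected, and their summed value was 134700 and 138300 in ctrl and 125200 and 130600 in shOGT. Among them Fabp7 fell. Vim and Msi1 were higher in both shOGT libraries (log2 fold changes 0.09 and 0.17). Sox2 and Slc1a3 were lower in both (-0.02 and -0.08), and neither pair passed the test. Pdgfra and Gpr17 fell among 4 markers of oligodendrocyte progenitors, with summed values of 21900 in both ctrl libraries and 22660 and 21800 in shOGT. Cspg4 was lower in both shOGT libraries (log2 fold change -0.18) and Olig2 higher in both (0.06), and neither passed the test. Aldh1l1 and Gja1 fell among 5 astrocyte markers, which summed to 15320 and 15050 in ctrl and to 13620 and 14500 in shOGT. Of the others, Aqp4 was lower in both shOGT libraries (log2 fold change -0.33) and Gfap higher in both (0.33). S100b overlapped between the groups, and none of the others passed the test. None of 5 neuronal markers passed the test, and they summed to 291 to 389. Dcx was lower in both shOGT libraries (log2 fold change -1.11), and Rbfox3 and Snap25 were higher in both (0.44 and 0.27). Syt1 and Tubb3 overlapped between the groups. The 5 microglial markers used summed to 8.93 to 11.3, with Csf1r, Tmem119 and Ptprc at 0 in at least 1 library. Mog of the oligodendrocyte list was at 0.997 and 0.992 in ctrl, at 0 in both shOGT libraries, and was not tested. Mag of that list was at 0.997 and 0 in ctrl and at 3.19 and 3.77 in shOGT, and did not pass. What part these marker differences had in the results below was not tested. In such bulk RNA, fewer cells of a type and less RNA per cell cannot be told apart.

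Of the 3 xylosyltransferase genes, 2 were lower with the Ogt hairpin. Gxylt1 fell by 26.7% and Xxylt1 fell by 19.0% in the mean, and these were the 2 of 10 enzymes past the threshold of an adjusted p under 0.05 in limma. Across all 21829 genes tested, 2.90% were called lower and 1.96% higher. No enzyme of the 10 was called higher; at an unadjusted p under 0.05 the limma counts were 4 lower and 0 higher, where 10.3% of all genes were lower and 9.02% higher. The 10 enzymes had a median log2 fold change of -0.12, where that of all tested genes was 0.0012. Leaving out ctrl 1 or ctrl 2 gave medians of -0.08 and -0.21, and leaving out shOGT 1 or shOGT 2 gave -0.09 and -0.19. The estimate was below 0 for 9 of the 10, compared with 10871 of the 21829 genes. It was below 0 for 6 without ctrl 1 and for 7 without shOGT 1. Both shOGT values lay under both ctrl values for 6 enzymes (24.3% of all genes) and over them for 1, Rfng (25.0% of all genes). The groups overlapped for Mfng, Gxylt2 and Eogt, which had the lowest values of the 10. Limited to genes that reached 10 in at least 2 libraries, the fit called 3 of the 10 enzymes and 7.32% of 15475 genes lower.

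**Figure D1:**
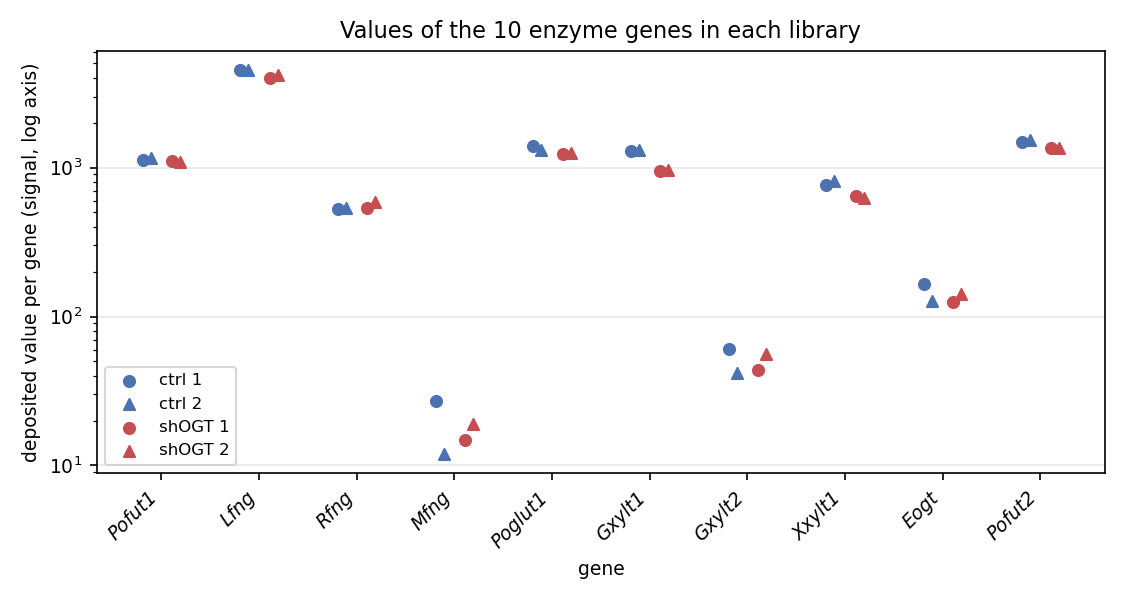
Deposited value (log axis) of each of the 10 genes, with 1 point per library (blue ctrl, red shOGT, circle replicate 1, triangle replicate 2). The red points of Gxylt1 and Xxylt1 sit below the blue ones, and those of Mfng, Gxylt2 and Eogt are mixed.

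Gxylt1 encodes a xylosyltransferase that places the first xylose on O-glucose. The gene lies on the minus strand at chr15:93239742-93275179 on GRCm38. Its value was 1289 in ctrl 1 and 1308 in ctrl 2, and 942 in shOGT 1 and 961.5 in shOGT 2. Libraries of one group nearly coincided, and the groups were far apart. The mean went from 1299 ± 13.4 to 951.8 ± 13.8 (SD, n = 2), a log2 fold change of -0.45 ± 0.05 (SE) with a 95% interval of -0.57 to -0.33 (limma adjusted p = 0.00276). By size of the fold change it was number 156 of the 633 genes called lower. The fold change ranged from -0.46 to -0.43 with any 1 library left out. In such a fit 1 group has a single library, which is assumed to vary like the 2 libraries of the other group, so that each adjusted p rests on the spread within the other group alone. Its limma adjusted p was then 0.286 to 0.308 over the same genes, where 0 of all genes passed, and 1.63e-09 to 0.0245 over genes that reached 10 in at least 2 libraries. With the filter on low values applied anew to the 3 libraries kept, it passed without ctrl 1 (1.74e-05) or ctrl 2 (4.31e-05), and not without shOGT 1 (0.285) or shOGT 2 (0.288).

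Xxylt1 encodes the xylosyltransferase that completes the trisaccharide by adding a xylose to xylose. It lies on the minus strand at chr16:30955144-31081432. The ctrl libraries gave 760.9 and 814.4, and the shOGT libraries gave 648.5 and 627.8. Both shOGT libraries were lower than both ctrl libraries, and the gap between groups was wider than the gap within either. The mean went from 787.7 ± 37.8 to 638.2 ± 14.7 (SD, n = 2). On the log2 scale it fell by 0.30 ± 0.07 (SE; 95% interval -0.45 to -0.15; limma adjusted p = 0.0325). With a library left out it ranged from -0.35 to -0.25, with an adjusted p of 0.311 to 0.378 over the same genes. Under the same assumption about the lone library, over genes that reached 10 it passed without shOGT 1 (0.00105) and without shOGT 2 (0.00676), and not without ctrl 1 (0.0837) or ctrl 2 (0.18). With the filter applied anew it passed without ctrl 1 (0.0117), and not without ctrl 2 (0.123), shOGT 1 (0.291) or shOGT 2 (0.296).

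The RefSeq promoter windows of these 2 genes (GRCm38.p6, 250 bases before to 50 after the start site, 5′ to 3′ on the gene's strand) are shown because they are the enzymes that fell. The Gxylt1 window is chr15:93275130-93275429, minus strand, with a GC content of 74.7%. The Xxylt1 window is chr16:31081383-31081682, minus strand, with a GC content of 60.0%.
Gxylt1: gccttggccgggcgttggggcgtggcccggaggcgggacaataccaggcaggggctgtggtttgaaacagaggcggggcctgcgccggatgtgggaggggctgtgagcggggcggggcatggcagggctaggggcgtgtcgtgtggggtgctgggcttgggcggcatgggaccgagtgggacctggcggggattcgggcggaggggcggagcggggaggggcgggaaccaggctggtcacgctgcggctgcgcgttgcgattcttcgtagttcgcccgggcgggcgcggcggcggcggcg
Xxylt1: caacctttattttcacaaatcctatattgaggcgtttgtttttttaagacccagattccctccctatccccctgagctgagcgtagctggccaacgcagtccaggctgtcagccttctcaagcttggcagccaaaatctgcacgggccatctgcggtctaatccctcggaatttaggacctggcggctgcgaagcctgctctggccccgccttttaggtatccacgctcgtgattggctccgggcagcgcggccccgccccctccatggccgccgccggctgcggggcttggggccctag
Neither window held, on either strand, TGGGAA, the core word of Rbpj, through which the Notch intracellular domain reaches DNA.

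In these libraries the words GCTATC and GTACCC are frequent in the 3′ untranslated regions of genes that fell; they had been singled out in an earlier look at the same data, so that the shares below are a description. One or both stood in 55.1% of the 612 lower genes with such a region, in 29.6% of the 409 higher genes and in 29.2% of the 15109 tested genes. Median lengths of the region were 1566, 1731 and 1148 bases. Of the 10 enzymes, 3 held a word: Gxylt1, with 1 of each, Pofut1, with 1 GCTATC and 2 GTACCC, and Gxylt2, with 1 GCTATC. These were the 3 longest regions, of 5412, 4364 and 6213 bases. Xxylt1, which also fell, held neither in its 2194 bases. The sites of Gxylt1 lie on the minus strand at chr15:93242794-93242817 and chr15:93244485-93244508, and the word is in capitals.
Gxylt1 GCTATC site: aattattacGCTATCtttaaggtg
Gxylt1 GTACCC site: acaatctatGTACCCgcatacatt
What part these words have in the fall of Gxylt1 was not tested.

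The other enzymes of the O-glucose branch did not pass. Poglut1, which adds the glucose that Gxylt1 and Xxylt1 extend, lies at chr16:38525137-38550258 on the minus strand. It was at 1403 and 1309 in ctrl and at 1238 and 1257 in shOGT, so that shOGT was lower in both libraries by about as much as the ctrl libraries differed. Its log2 fold change was -0.12 ± 0.05 (SE; 95% interval -0.24 to 0.0034; limma adjusted p = 0.272). Gxylt2, the second glucoside xylosyltransferase, lies at chr6:100704734-100810913 on the plus strand. It was at 60.8 and 41.7 in ctrl and at 43.6 and 55.6 in shOGT. The groups overlapped, and the interval of its fold change, -0.61 to 0.54, holds a change as large as that of Gxylt1. About 41 to 61 implied reads stood behind each value of Gxylt2.

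Scaled by exon length, Gxylt1 made up 96.4% and 97.5% of the 2 glucoside xylosyltransferases in ctrl and 96.5% and 95.6% in shOGT. The summed level of Gxylt1 and Gxylt2 per kilobase was 0.661 and 0.71 of that of Poglut1 in ctrl, and 0.547 and 0.554 in shOGT. The ratio was lower in both shOGT libraries, so that transcripts of Gxylt1 and Gxylt2 were fewer for each transcript of Poglut1. Gxylt1 makes up most of that sum and had been called lower, so that this ratio is no further result. Xxylt1 stood at 0.649 and 0.744 of Poglut1 in ctrl and at 0.627 and 0.597 in shOGT. These ratios are of transcripts, and with 2 libraries against 2 an exact permutation test cannot reach 0.05.

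**Figure D2:**
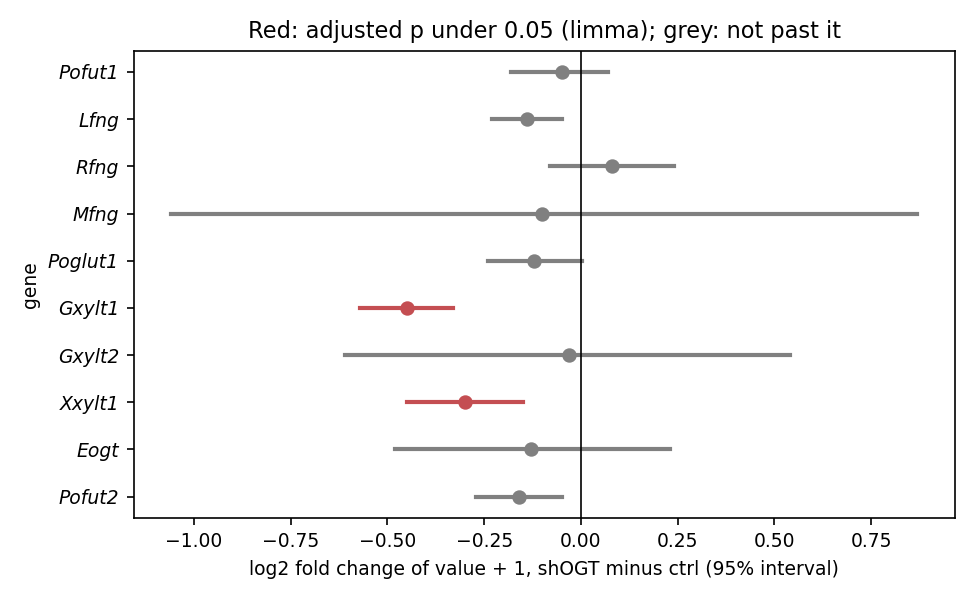
Log2 fold change (value + 1, shOGT minus ctrl) of each gene from the limma fit over all genes, with 95% intervals; red marks an adjusted p under 0.05. Gxylt1 (-0.45) and Xxylt1 (-0.30) are red, and the intervals of Mfng and Gxylt2 are the widest.

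On the O-fucose branch no enzyme was called. Pofut1, which starts the branch and without which Notch does not signal in mouse embryos, lies at chr2:153241533-153270247 on the plus strand. It was at 1123 and 1168 in ctrl and at 1110 and 1095 in shOGT. Both shOGT values were lower, by no more in the mean than the ctrl libraries differed, and the log2 fold change was -0.05 ± 0.05 (SE; 95% interval -0.18 to 0.07; limma adjusted p = 0.641). The interval leaves out a fall as large as that of Gxylt1.

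Lfng, lunatic fringe, was the most abundant of the 10. It lies at chr5:140607320-140615545 on the plus strand. The ctrl libraries gave 4524 and 4503, and the shOGT libraries gave 3986 and 4182. Both shOGT libraries were lower, and they differed from each other more than the ctrl libraries did. The mean was 4513 ± 14.9 in ctrl and 4084 ± 138 in shOGT (SD, n = 2). The log2 difference was -0.14 ± 0.04 (SE; 95% interval -0.23 to -0.05), and it missed the threshold (limma adjusted p = 0.0761). It passed when the fit was limited to genes that reached 10 in at least 2 libraries (adjusted p = 0.0311), where 3 of the 10 enzymes and 7.32% of 15475 genes were called lower. With a lone library in 1 group, as above, it did not pass over those genes without ctrl 1 (0.271), ctrl 2 (0.241) or shOGT 1 (0.0773), and passed without shOGT 2 (0.00114).

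Rfng, radical fringe, lies at chr11:120780746-120784207 on the minus strand. It was at 526.6 and 536.7 in ctrl and at 539.0 and 584.5 in shOGT, with 1 shOGT library close to ctrl. Its log2 fold change was 0.08 ± 0.07 (SE; 95% interval -0.08 to 0.24; limma adjusted p = 0.619), and it was 0.02 without shOGT 2. Mfng, manic fringe, lies at chr15:78755882-78773475 on the minus strand. It was at 26.9 and 11.9 in ctrl and at 14.9 and 18.9 in shOGT, on 12 to 27 implied reads. The ctrl libraries enclosed both shOGT libraries, and a change of Mfng was not detectable at this depth (95% interval -1.06 to 0.87).

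Per kilobase of exon, Lfng made up 89.1% of the 3 fringes in each ctrl library and 87.8% and 87.4% in shOGT. Rfng made up 10.4% and 10.7% in ctrl and 11.9% and 12.3% in shOGT. The share of Rfng was thus slightly higher in both shOGT libraries. Neither gene was called, and a lower Lfng alone raises the share of Rfng. Mfng was 0.208% to 0.468% over the 4 libraries. The fringes together stood at 17.9 and 17.1 times Pofut1 in ctrl and at 16.2 and 17.3 times in shOGT, and the groups overlapped.

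The promoter window of Lfng, at chr5:140607091-140607390 on the plus strand (RefSeq, GRCm38.p6), is shown because Lfng is the abundant fringe here and because the Rbpj word is in it. Capitals mark TGGGAA, the Rbpj core, or its reverse complement, and CACGTG, an E-box of the kind that basic helix-loop-helix factors bind.
Lfng: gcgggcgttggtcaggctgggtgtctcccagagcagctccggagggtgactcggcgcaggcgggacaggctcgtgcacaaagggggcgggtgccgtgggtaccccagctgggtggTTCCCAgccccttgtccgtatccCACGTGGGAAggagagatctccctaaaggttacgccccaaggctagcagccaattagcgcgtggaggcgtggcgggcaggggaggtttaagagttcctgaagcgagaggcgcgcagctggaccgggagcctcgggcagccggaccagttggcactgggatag
Counted in bases from the start site, TGGGAA began at -108 and its reverse complement at -135. CACGTG began at -112 and shares its last 2 bases with the nearer TGGGAA. Windows of the same length held TGGGAA on either strand in 25.6% of 32851 RefSeq promoters, and CACGTG in 7.15%. Of the 8 enzymes with a window in the table, 4 held TGGGAA (Pofut2, Poglut1, Lfng and Gxylt2), and 2 held CACGTG (Poglut1 and Lfng). A match is a word in the sequence and no measurement of binding.

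Eogt, the enzyme of extracellular O-GlcNAc, lies at chr6:97110024-97149182 on the minus strand. The ctrl libraries gave 165.5 and 127.0, and the shOGT libraries gave 124.4 and 141.4. One ctrl library was high and the other 3 libraries were close together, so that the groups overlapped. The log2 fold change was -0.13 ± 0.16 (SE; 95% interval -0.48 to 0.23; limma adjusted p = 0.724), and it was 0.06 without ctrl 1. Per kilobase, Ogt stood at 15.1 and 19.8 times Eogt in ctrl and at 16.5 and 15.1 times in shOGT. Exons of Eogt share 416 bases, 8.49% of its exon length, with Gm44065 on the other strand, which was at 0.997 to 2.83.

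Pofut2, which fucosylates thrombospondin type 1 repeats, lies at chr10:77259218-77269575 on the plus strand. It was at 1485 and 1542 in ctrl and at 1345 and 1363 in shOGT, with a clear gap between the groups. Its log2 fold change was -0.16 ± 0.05 (SE; 95% interval -0.27 to -0.05), and it missed the threshold (limma adjusted p = 0.112). Pofut1 stood at 0.601 and 0.602 of Pofut2 per kilobase in ctrl and at 0.656 and 0.639 in shOGT.

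The 10 enzymes spanned a wide range of levels. Per kilobase of exon, Lfng averaged 1802 in ctrl, above 98.2% of the tested genes. Poglut1 (291.2), Rfng (213.6), Xxylt1 (202.2), Gxylt1 (193.2), Pofut2 (192.1) and Pofut1 (115.5) followed in ctrl, of which Pofut1 was above 68.9% of the tested genes. Eogt averaged 29.9, above 47.3% of the tested genes, and Mfng (6.84) and Gxylt2 (6.02) were lowest. In ctrl the libraries of Gxylt1 and Pofut2 overlapped, as did those of Mfng and Gxylt2, and no other neighbours in this order did. In shOGT Pofut2 (171.9) stood above Xxylt1 (163.8) and Gxylt1 (141.6). Exon length is that of all annotated transcripts together, so that a gene whose cells use short transcripts appears lower.

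**Figure D3:**
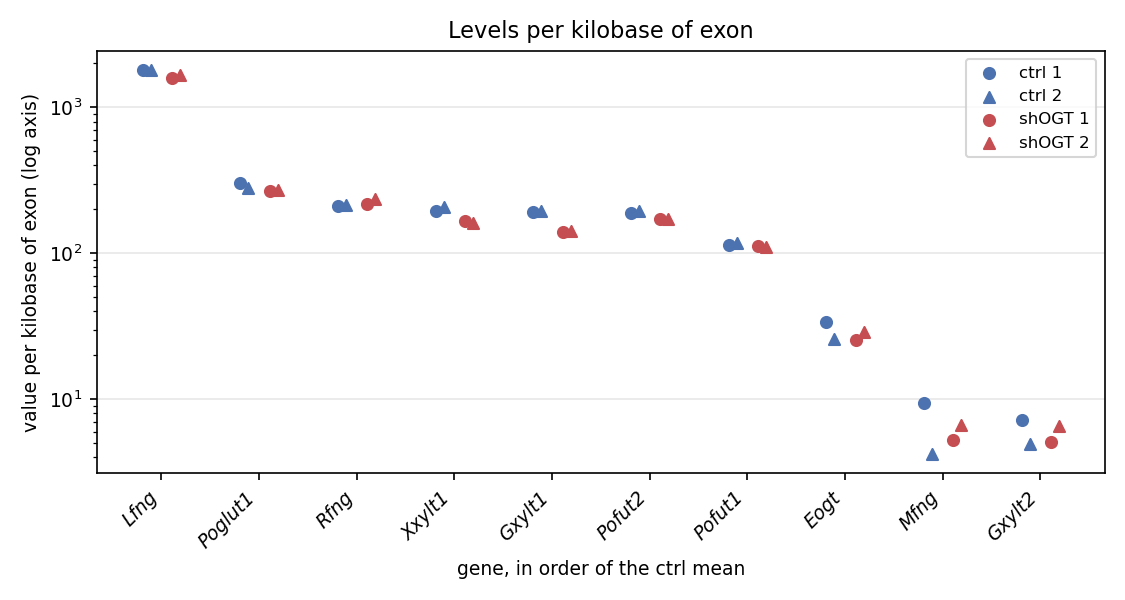
Value per kilobase of exon (log axis) of each gene and library, in order of the ctrl mean; blue is ctrl, red is shOGT, circle replicate 1, triangle replicate 2. Lfng stands above the rest, 6 genes lie between 110.5 and 301.2, and Eogt, Mfng and Gxylt2 lie lower.

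**Figure D4:**
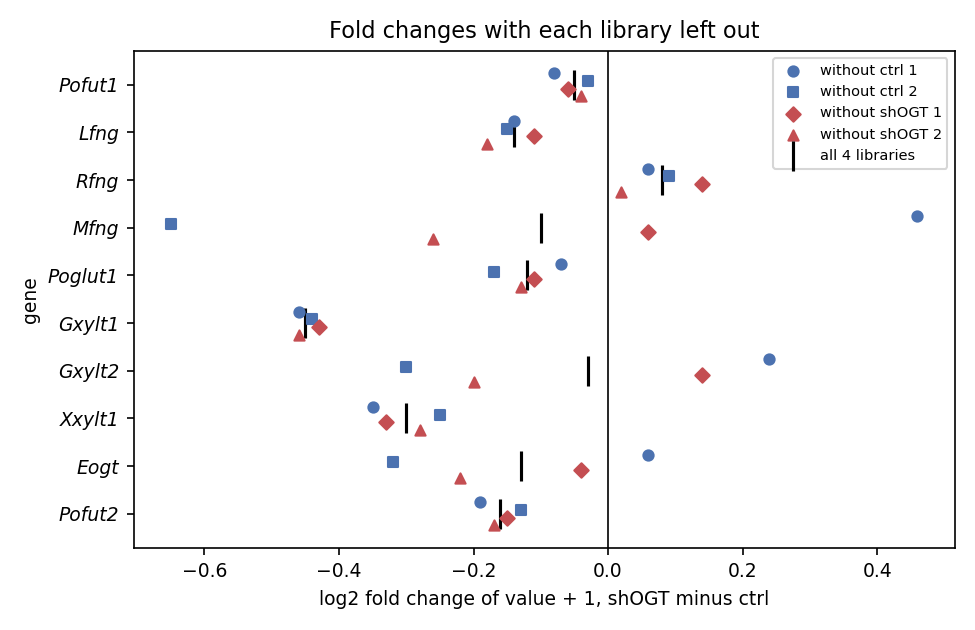
Log2 fold change of each gene with 1 library left out (blue, a ctrl library; red, a shOGT library) and with all 4 (black bar). The points of Gxylt1 lie between -0.46 and -0.43, while those of Mfng reach from -0.65 to 0.46.

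The donors of the sugars were measured as well. Of 18 genes that make or carry GDP-fucose, UDP-glucose, UDP-xylose and UDP-GlcNAc, 1 was lower and 1 higher (2.90% and 1.96% of all genes). At an unadjusted p under 0.05 the limma counts were 3 lower and 1 higher, where 10.3% of all genes were lower and 9.02% higher. Ugdh, which makes UDP-glucuronic acid, the precursor of UDP-xylose, was at 714.0 and 740.0 in ctrl and at 582.6 and 585.4 in shOGT. The difference was -0.32 ± 0.06 in log2 units (limma adjusted p = 0.0248). It shares 158 exon bases with Gm43552. Uxs1, which turns that precursor into UDP-xylose, was at 1349 and 1130 in ctrl and at 1254 and 1323 in shOGT, and the groups overlapped. Fuk, the kinase that salvages free fucose, rose from 252.6 ± 6.08 to 342.3 ± 10.5 (SD, n = 2; log2 fold change 0.44 ± 0.09; limma adjusted p = 0.0256). The median of the list was -0.04.

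Among 4 further enzymes of these glycans, limma called 0, and at an unadjusted p under 0.05 the count was 2, both lower (10.3% of all genes). They were B3glct, which extends the fucose that Pofut2 adds (log2 fold change -0.21 ± 0.06, adjusted p = 0.106), and Kdelc2, also known as Poglut3, an O-glucosyltransferase (-0.26 ± 0.09, adjusted p = 0.143). Kdelc1, or Poglut2, measured -0.08, and B4galt1, which adds galactose to the fringe product, measured -0.12.

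The Notch genes and the other genes for proteins with EGF repeats did not move as one. Which of the latter proteins carry these sugars was not tested. Of 9 Notch receptors and ligands limma called 0, with 2 higher (Notch2 and Jag1) and 1 lower (Dll3) at an unadjusted p under 0.05, where 9.02% of all genes were higher and 10.3% lower. Among the receptors the log2 fold change was 0.08 ± 0.04 (SE) for Notch1, 0.28 ± 0.10 for Notch2, -0.10 ± 0.06 for Notch3 and -0.01 ± 0.31 for Notch4. Among the ligands it was 0.17 ± 0.08 for Dll1, -0.26 ± 0.10 for Dll3, -0.34 ± 0.47 for Dll4, 0.22 ± 0.10 for Jag1 and 0.19 ± 0.30 for Jag2. The median of the 9 was 0.08. Of 18 other proteins with EGF repeats, 1 rose and 1 fell (1.96% and 2.90% of all genes). At an unadjusted p under 0.05 their limma counts were 5 lower and 3 higher. Celsr3, a cadherin of axon guidance, was at 73.8 and 66.5 in ctrl and at 200.9 and 175.3 in shOGT, a rise of 1.41 ± 0.15 (log2, SE; limma adjusted p = 0.00172). Vcan, the proteoglycan versican, was at 3205 and 3074 in ctrl and at 2239 and 2364 in shOGT, and fell by 0.45 ± 0.05 (log2, SE; limma adjusted p = 0.00168). The median of these 18 was -0.13.

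Of 20 proteins with thrombospondin type 1 repeats, the domain that Pofut2 modifies, 19 were tested, of which 1 rose and 2 fell (1.96% and 2.90% of all genes). At an unadjusted p under 0.05 the limma counts were 8 lower and 3 higher, where 10.3% of all genes were lower and 9.02% higher. Sema5a, a transmembrane semaphorin, rose from 831.5 ± 8.12 to 1298 ± 22.5 (SD, n = 2; log2 fold change 0.64 ± 0.05; limma adjusted p = 0.000667). Its relative Sema5b fell from 1057 ± 32.8 to 801.5 ± 72.4 (-0.40 ± 0.07; adjusted p = 0.0148), and the protease Adamts1 fell with -0.40 ± 0.07 (adjusted p = 0.0122). The median of the 19 was -0.22. Of 6 genes listed as HES and HEY effectors limma called 0, with 0 at an unadjusted p under 0.05. The list also holds Nrarp, which is not a HES or HEY gene, and the median of the 6 was 0.10. Hes1 measured 0.17 ± 0.08, Hes5 -0.53 ± 0.24, Hey1 0.03 ± 0.08, Hey2 0.51 ± 0.50, Heyl 0.41 ± 0.55 and Nrarp -0.22 ± 0.13 (log2, SE). These 75 list members and the 10 enzymes are to be read against the calls over all genes, 633 lower and 427 higher, which were 585 lower and 593 higher after all libraries were set to the same total. With equal totals 9 of the 10 enzymes were still below 0, with Gxylt1 at -0.43 and Xxylt1 at -0.29.

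**Figure D5:**
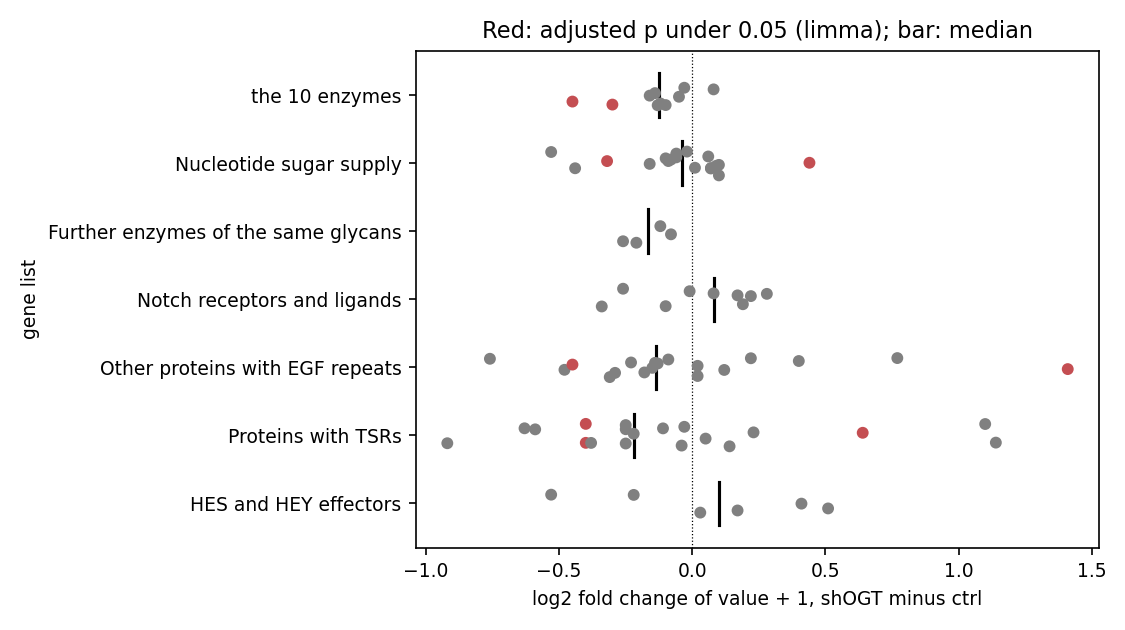
Log2 fold change (value + 1, shOGT minus ctrl) of the 10 enzymes and of the members of 6 lists, 1 point per gene, red where the adjusted p was under 0.05, with a black bar at the list's median; TSRs are thrombospondin type 1 repeats. Calls lie on both sides of 0 for nucleotide sugar supply, other proteins with EGF repeats and proteins with TSRs. The remaining lists hold no call, and the 2 calls of the enzymes lie below 0.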

How the data were processed

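RNA of 4 libraries was sequenced. The authors deposited a signal value for each of 25261 Ensembl identifiers in each library; the submitters' processing notes name mm10, whereas aligner, counter, strand setting and normalization were not given in the sources used here. In each library 100% of the deposited signal values were whole multiples of 1 step (within 0.01 of it). No count test was run. Annotation (symbols, positions, exon lengths) was GENCODE M21 for GRCm38, which mm10 represents (25250 identifiers matched, 11 did not), and promoters from RefSeq. A chi-square over genes with at least 20 implied reads gave 2.02 a gene within ctrl and 3.33 within shOGT (sampling alone gives 1). Each library was counted as a replicate, although this spread cannot tell separate cultures from repeat libraries of the same culture.

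limma 3.58.1 in R 4.3.3 was fitted with a variance trend to log2(value + 1) of the 21829 genes reaching 1 in 2 or more libraries, with Benjamini-Hochberg adjustment over all of them. Fold changes on this scale understate the change of low genes. The fit was checked on simulated data whose spread was set in advance and was alike in both groups. That check does not bear on the calls in these libraries. All 10 enzymes are named; of each list, the called genes (at most 4 a direction) or, where none was called, the 2 of smallest p. All Notch receptors, ligands and HES or HEY effectors listed are named as well. Ogt and the donor gene Uxs1 are named besides; Uxs1, B4galt1 and Kdelc1 were named after their values were seen. The enzymes, lists and tests were chosen with earlier results of these data known. A marker result is not reported here.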

Additional observations from a re-analysis of the deposited data

How the results depend on the processing

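Gxylt1 and Xxylt1 had negative estimates under every alternative run. With no filter on low values, with quantile normalization and without the variance trend, 0 enzymes, 0 pathway genes and 0 genes in all were called in limma, while 4302, 3998 and 2763 genes had an unadjusted p under 0.05. With a minimum of 10, 3 enzymes, 15 pathway genes and 1955 genes in all were called.

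Calls with 1 library left out depended on the genes fitted. Filtering anew on the 3 libraries kept was run first and gave, without ctrl 1, ctrl 2, shOGT 1 and shOGT 2 in turn, 2, 1, 0 and 0 enzymes, 10, 10, 0 and 0 pathway genes and 1165, 1220, 0 and 0 genes in all. After those values had been seen, the genes of the original fit were used instead so that a single choice changed; all 4 fits then called 0, with 2484 to 3389 genes at an unadjusted p under 0.05 (3229 and 3186 for the 2 counts of 0 above). A further set, genes reaching 10 in 2 of the 4 libraries, was also added after seeing the data and gave 1, 1, 2 and 4 enzymes, 3, 4, 17 and 17 pathway genes and 275, 329, 2335 and 2457 genes in all. With Pofut2 that made 4 without shOGT 2 (adjusted p = 0.0436). The signs of 3 enzymes of low value turned: Mfng ranged from -0.65 to 0.46 (0.06 without shOGT 1), Gxylt2 from -0.30 to 0.24 (0.14 without shOGT 1) and Eogt from -0.32 to 0.06. The cause of these differences was not tested.

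The replicate numbers are not stated to pair libraries, and the deviations of ctrl 1 and shOGT 1 from their group means were uncorrelated over genes (r = 0.0073). With the number as a replicate block, 3 enzymes, 19 pathway genes and 2302 of all 21829 genes were called. Lfng then had a limma adjusted p of 0.0169. The main fit, without the block, called 2 enzymes, 7 pathway genes and 1060 of the same 21829 genes. edgeR and DESeq2 on whole reads, listed as alternatives, were not run. With 2 libraries a group and 12 to 61 implied reads, Mfng and Gxylt2 allow no statement on their direction.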
